A study of Mus musculus with 32 samples.

Results

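The semaphorin ligands Sema7a, Sema3a, Sema3b, Sema3c, Sema3e, Sema3f and Sema5a, together with the Sema7a receptor Plxnc1, were followed over a time course of FGF treatment in immortalized MEFs (fibroblasts of the mouse embryo that grow without limit in culture). They are 8 of the 18312 genes on the array, where each probe without a gene symbol is counted as a gene. They were taken as every probe whose platform annotation carries 1 of these 8 symbols, which gave 15 of 25697 probes. The genes were picked with earlier results of these arrays in view, so their differences are given as values, with no p-value and no call. Total RNA was hybridised to 32 Illumina mouse bead arrays. KO cells (Spry124-/-) had Spry1, Spry2 and Spry4 excised, and WT cells (Spry124fl/fl) carried the same 3 genes floxed and intact. Both were kept without serum in DMEM with 0.2% BSA, penicillin and streptomycin, and both were sampled at 0, 15, 60, 120 and 240 min after FGF. Each genotype had 4 arrays at 0 min and 3 at every later time. The sources used here do not give which FGF was used, its dose, the origin of the 2 cell lines, the way the genes were excised or whether a line is 1 clone. No array was taken at a later time without FGF. The replicates are described as biological without mention of separate cultures, and each p-value therefore rests on a spread between arrays that may be technical.

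Semaphorins are secreted or membrane-bound guidance proteins that share a sema domain and were first known for steering growing axons. Most act through plexins, receptors whose cytoplasmic part switches off small GTPases of the Ras family and so loosens cell adhesion and actin structure. The secreted class 3 proteins need a neuropilin as co-receptor, except Sema3e, which binds plexin D1 directly. Sema7a is held in the membrane by a lipid anchor and acts through plexin C1 and through integrins that contain the Itgb1 chain. In fibroblasts and other non-neuronal cells semaphorins are known for effects on adhesion, spreading and migration. Sprouty proteins, which the KO cells lack, dampen the Ras and ERK signal that receptor tyrosine kinases such as the FGF receptors set off.

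The promoter window of Sema7a, the member with the widest range over the groups, and that of Sema3a, the member with the lowest KO level relative to WT, are shown as RefSeq gives them on build GRCm38.p6, from 250 bases before to 50 bases after the start of the gene and 5′ to 3′ on the gene's strand. Capitals mark matches to the searched motifs: the GC box GGGCGG at -84 and -71 from the start, and the CRE core TGACG at +41, all in the window of Sema7a.
Sema7a, chr9:57939862-57940161, + strand: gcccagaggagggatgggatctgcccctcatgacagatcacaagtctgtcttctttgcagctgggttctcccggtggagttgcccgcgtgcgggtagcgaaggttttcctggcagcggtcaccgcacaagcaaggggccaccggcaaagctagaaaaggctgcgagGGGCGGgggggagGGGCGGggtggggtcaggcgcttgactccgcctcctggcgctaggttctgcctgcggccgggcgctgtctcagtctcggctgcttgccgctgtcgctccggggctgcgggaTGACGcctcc
Sema3a, chr5:13396534-13396833, + strand: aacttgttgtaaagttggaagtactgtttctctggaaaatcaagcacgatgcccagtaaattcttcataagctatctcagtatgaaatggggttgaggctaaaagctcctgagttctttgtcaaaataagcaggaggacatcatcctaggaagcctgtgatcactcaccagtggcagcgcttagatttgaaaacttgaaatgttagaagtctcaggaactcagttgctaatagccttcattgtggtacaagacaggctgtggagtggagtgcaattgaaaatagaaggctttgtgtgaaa
The Sema7a window is 67.3% G or C and holds 23 CpG dinucleotides. That of Sema3a is 41.3% G or C, holds 2 CpG dinucleotides and has no match to any motif searched. The medians over the 32851 promoters of the RefSeq table are 52.7% and 7 CpG. Searched on both strands were AP-1 (TGANTCA), Egr (GCGNGGGCG), CRE (TGACGTCA, which contains the CRE core), the CRE core (TGACG), the GC box (GGGCGG, which can overlap an Egr match), Ets (CCGGAAGT) and the CArG box of serum response factor. They are present in 7.81%, 5.55%, 1.79%, 20.8%, 35.7%, 3.89% and 1.63% of all promoters in that order. A match is a description of letters and not a binding site, and a motif that was not found is only absent from these 300 bases.

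Values are normalized log2 intensities, on which differences are log2 folds, and probes are compared between groups but not with each other. A probe was called detected on an array where its detection p lay under 0.05. KO arrays detected 11516 to 12470 and WT arrays 11319 to 11978 of the probes. Of the 15 member probes, 13 were detected on at least 3 arrays, which kept 7 of the 8 genes. The probe of Sema3e, a ligand of plexin D1, was detected on 2 of 32 arrays and is not described further. Spry4, 1 of the excised genes, was 0.71 ± 0.13 lower on the log2 scale in KO than in WT cells at 0 min (SE; limma adjusted p = 6.88e-05) and lower without overlap at 60, 120 and 240 min, while at 15 min neither genotype detected it. In KO cells it was detected on 1 of 4 arrays at 0 min and on none at 15, 60 or 240 min, but on 3 of 3 at 120 min, where it read 5.04 to 5.35 in KO, against 6.03 to 6.31 in WT cells. That KO level at 120 min was 0.44 ± 0.14 above KO at 0 min (limma adjusted p = 0.0353) and reached into the range of WT at 0 min (5.16 to 5.77). Where this probe lies relative to the excised part was not tested, so it does not settle the label. Spry1 and Spry2 were not well above background. The immediate early gene Egr1 rose at 60 min by 3.42 ± 0.15 in KO and by 2.46 ± 0.15 in WT cells (limma adjusted p = 7.33e-16 and 1.34e-12). Of 12 fibroblast markers, 10 were detected on every array of both genotypes, Fap being among the dim ones. The 11 tested had a summed linear signal of 17277 to 21601 on KO and 23190 to 26395 on WT arrays. Averaged over the 5 times, 5 of them were higher and 4 lower in KO cells (limma adjusted p under 0.05). Of all genes, 31.8% were higher and 35.6% lower. The tested epithelial markers, 2 of 4 listed, summed to 55.7 to 73.9 on KO and 101 to 202.8 on WT arrays. By the same fit 1 was higher and 1 lower in KO, and Krt18 was not kept. The 2 macrophage markers tested (Cd14, Lyz2) summed to 178 to 328 on KO and 117 to 200 on WT arrays. Both were higher in KO, and Ptprc, Adgre1 and Itgam were not kept. For endothelial cells and for neuron and glia, 2 markers each were tested and 1 of each was higher in KO (31.8% of all genes). None was detected on every array of either genotype. The endothelial sums were 45.0 to 72.9 on KO and 42.0 to 56.9 on WT arrays, and those of neuron and glia 43.3 to 66.3 and 41.9 to 84.5. Pecam1, Cdh5, Tie1, Gfap and Rbfox3 were not kept. Of the skeletal muscle markers 2 were tested and neither passed. The part of these cell types in the differences between the genotypes was not tested. Fewer cells of a type and less RNA per cell cannot be told apart in bulk RNA.

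Sema7a was the member with the widest range over time. Its signal stood about as high at 15 and 60 min as at 0 min in KO cells and was far higher at 120 and 240 min in both genotypes. It was higher in KO than in WT cells at all 5 times, and the arrays of the 2 genotypes overlapped at none of them. At 0 min Sema7a read 7.04, 7.14, 7.09 and 7.39 on the KO arrays, against 6.08, 6.32, 6.47 and 5.82 on the WT arrays. At 15 min it read 6.89, 7.38 and 7.08 in KO and 4.77, 4.54 and 5.01 in WT cells. The lowest KO array of these 2 times was thus above every WT array, and the 15 min WT arrays lay below all other arrays of the series. At 60 min the values were 6.96, 7.15 and 7.14 in KO and 5.92, 5.78 and 6.18 in WT cells. At 120 min they were 9.28, 9.20 and 9.40 in KO against 7.90, 7.99 and 8.38 in WT cells. At 240 min they were 10.35, 10.21 and 10.24 in KO against 8.36, 8.27 and 8.35 in WT cells. The step up between 60 and 120 min was present in both genotypes, and between 120 and 240 min all KO arrays moved higher while the WT arrays of the 2 times overlapped.

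**Figure D1:**
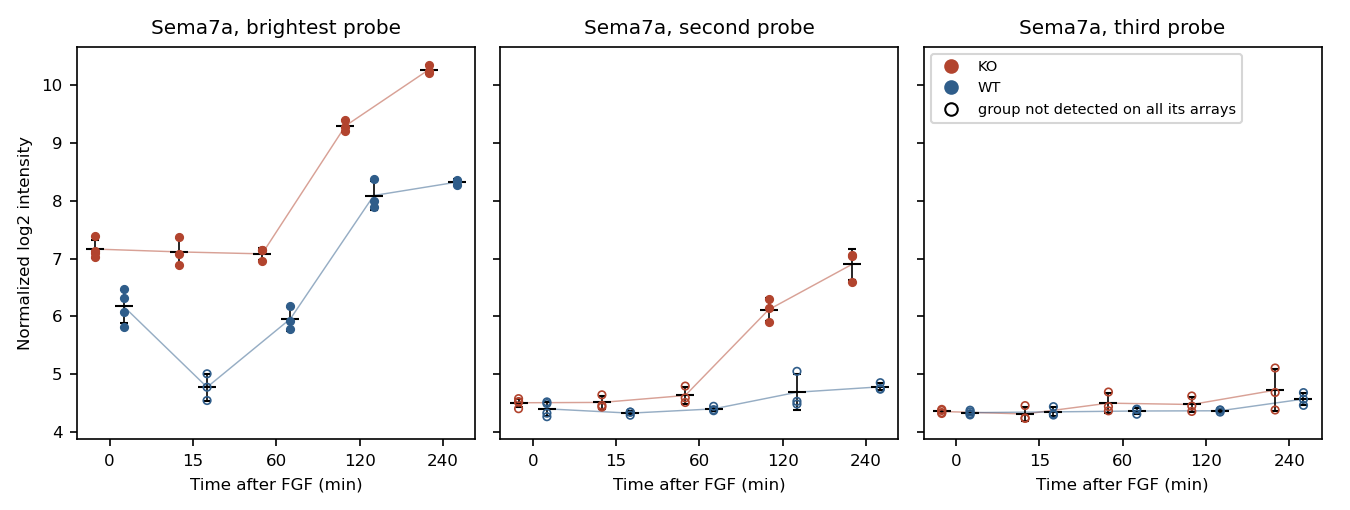
Normalized log2 intensity (y axis) of the 3 Sema7a probes by time after FGF (x axis, min) in KO (red) and WT (blue) cells; points are arrays, black bars are mean ± SD, and open points mark groups in which the probe was not detected on every array. The brightest probe reached a mean of 10.27 in KO and 8.32 in WT cells at 240 min, the second was detected in full only in KO cells at 120 and 240 min, and the third stayed dim.

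In KO cells the fitted difference of Sema7a from 0 min was -0.05 ± 0.14 at 15 min, -0.08 ± 0.14 at 60 min, 2.13 ± 0.14 at 120 min (4.38-fold) and 3.10 ± 0.14 at 240 min (8.59-fold; log2, SE, n = 3 against 4 arrays). In WT cells it was -1.40 ± 0.14, -0.21 ± 0.14, 1.92 ± 0.14 (3.78-fold) and 2.15 ± 0.14 (4.44-fold) at the same times. The low value at 15 min in WT cells lies close to background, since the probe was detected on 1 of the 3 arrays there. It ranged from -0.69 to -2.84 with other background corrections and sources of the values, so its size is open to the handling of dim signal. KO minus WT was 0.99 ± 0.13, 2.34 ± 0.15, 1.12 ± 0.15, 1.20 ± 0.15 and 1.94 ± 0.15 at 0, 15, 60, 120 and 240 min, which averaged 1.52 ± 0.07 (2.87-fold). The response in KO minus that in WT cells was 1.35 ± 0.20 at 15 min, 0.13 ± 0.20 at 60 min, 0.21 ± 0.20 at 120 min and 0.95 ± 0.20 at 240 min. The value at 240 min is a description with no call, since Sema7a was picked with these arrays in view. The difference at 120 min had no settled size or direction, since it read 0.77 as a mean over the 2 kept probes, of which 1 is dim in most groups, and -0.21 under median scaling over all probes. Averaging the kept probes also gave 1.10 and 1.27 for the WT responses at 120 and 240 min and 1.48 for the difference of the responses at 240 min, and the difference at 15 min ranged from 0.65 to 2.79 over the alternatives.

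Ordered by mean, Sema7a was lowest in WT cells at 15 min (4.78 ± 0.23, SD), followed by WT at 60 min (5.96 ± 0.21) and WT at 0 min (6.17 ± 0.29), whose arrays overlapped. Next came KO at 60 min (7.08 ± 0.11), 15 min (7.12 ± 0.24) and 0 min (7.16 ± 0.16), which overlapped with each other and with no WT group. WT at 120 min (8.09 ± 0.26) and 240 min (8.32 ± 0.05) overlapped too and lay above KO at 0 min. KO at 120 min (9.30 ± 0.10) and 240 min (10.27 ± 0.08) stood apart from every other group.

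The 3 Sema7a probes did not read alike. The second was detected on 7 of 32 arrays: 3 of 3 in KO at 120 min, 3 of 3 in KO at 240 min and 1 of 3 in WT at 120 min. It read 6.29, 5.90 and 6.15 in KO cells at 120 min and 6.59, 7.05 and 7.05 at 240 min, against 4.40 to 4.58 in KO cells at 0 min, where it was not well above background. Taking the lowest detected signal of each dim array as its floor, KO cells were at least 2.39-fold higher at 120 min and at least 4.11-fold higher at 240 min than at 0 min. At 240 min KO cells were at least 3.83-fold higher than WT cells (4.74, 4.75 and 4.85), in which this probe was not well above background. Over the 10 group means it followed the brightest probe with r = 0.86, a description of points that share the arrays. The third probe was detected on 1 array, in KO cells at 240 min, and is not used further.

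The receptor gene Plxnc1 was at the edge of detection. Its single probe was detected on 9 of 16 KO arrays and 1 of 16 WT arrays (at 15 min), with values of 4.46 to 5.18 in KO and 4.38 to 4.97 in WT cells. These ranges overlap at every time. No WT array at 0, 60, 120 or 240 min detected it and no bound could be had, so the fitted difference averaged over the times, 0.22 ± 0.07, is no measure of size, and it read 0.12 to 1.23 under the other settings.

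Sema3a, a secreted class 3 ligand that acts through neuropilin 1 and A-type plexins, had the opposite genotype difference to that of Sema7a and little change over time. At 0 min it read 6.30, 6.29, 6.12 and 6.10 on KO arrays, against 7.70, 7.93, 7.85 and 7.74 on WT arrays. At 240 min it read 6.13, 6.43 and 6.46 in KO and 8.06, 8.05 and 8.14 in WT cells. The highest of all 16 KO arrays (6.74, at 60 min) lay below the lowest of all 16 WT arrays (7.63, at 15 min). KO minus WT was -1.60 ± 0.10, -1.39 ± 0.12, -1.26 ± 0.12, -1.51 ± 0.12 and -1.74 ± 0.12 at 0, 15, 60, 120 and 240 min, or -1.50 ± 0.05 on average. That average is 2.83-fold more signal in WT cells. Over time the group means spanned 6.20 to 6.46 in KO and 7.70 to 8.08 in WT cells, and the WT arrays at 240 min lay above those at 0 min, by 0.27 ± 0.11.

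Sema3f, a class 3 ligand with a preference for neuropilin 2, was higher in KO cells at every time. It read 9.59, 9.69, 9.82 and 9.49 in KO cells at 0 min, against 8.98, 8.89, 8.68 and 8.88 in WT cells. At 240 min it read 9.65, 9.06 and 9.45 in KO and 8.24, 8.21 and 8.20 in WT cells. All 16 KO arrays were above all 16 WT arrays. KO minus WT was 0.79 ± 0.09, 0.85 ± 0.11, 0.98 ± 0.11, 0.82 ± 0.11 and 1.17 ± 0.11 in time order, and 0.92 ± 0.05 on average. In WT cells Sema3f was lower at 240 min than at 0 min by 0.64 ± 0.10 with no overlap of arrays. In KO cells the same difference was -0.26 ± 0.10 with overlap and an SD of 0.30 among the 240 min arrays, and it was -0.10 without KO 240 min replicate B. A second bright probe gave -0.07 ± 0.11 in KO cells, -0.70 ± 0.11 in WT cells and 0.99 ± 0.05 for KO minus WT, and its 10 group means had r = 0.994 with the first. The remaining probe was detected on 3 arrays.

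Sema5a, a transmembrane semaphorin with thrombospondin repeats outside the cell, was somewhat lower in KO cells. At 120 min, where the genotypes lay furthest apart, it read 7.63, 7.70 and 7.54 in KO and 8.11, 8.22 and 8.29 in WT cells. KO minus WT was -0.26 ± 0.10, -0.45 ± 0.12, -0.20 ± 0.12, -0.58 ± 0.12 and -0.20 ± 0.12 at the 5 times and -0.34 ± 0.05 on average, with arrays that did not overlap at 15, 60 and 120 min. The KO arrays at 120 min lay below all 4 KO arrays at 0 min, by 0.30 ± 0.11, and the KO arrays at 240 min again overlapped with those at 0 min. A second Sema5a probe followed the first with r = 0.969 over the 10 group means and gave -0.32 ± 0.06 for the averaged difference.

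The arrays of the genotypes overlapped at most times for the remaining class 3 ligands. Sema3c was detected on all 32 arrays and spanned 5.03 to 6.17 in KO and 5.28 to 6.21 in WT cells, overlapping at each time, with an averaged difference of -0.27 ± 0.10. It was furthest apart at 120 min, with means of 5.40 ± 0.37 in KO and 5.91 ± 0.30 in WT cells, and at 240 min, with 5.30 ± 0.26 in KO and 5.84 ± 0.42 in WT cells (SD, n = 3 each). KO minus WT was -0.51 ± 0.23 and -0.53 ± 0.23 at these times. Sema3b was detected on 29 arrays and spanned 5.04 to 5.60 in KO and 4.70 to 5.52 in WT cells. Its averaged difference was 0.15 ± 0.07, and the genotypes were apart only at 240 min (5.48, 5.34 and 5.44 in KO against 5.32, 5.25 and 4.70 in WT cells). In WT cells Sema3b read 5.43, 5.52 and 5.45 at 15 min, against 5.21, 5.09, 5.09 and 4.89 at 0 min, a difference of 0.40 ± 0.15 that ranged from 0.17 to 0.72 under the other settings. Its 2 other probes were detected on 13 and 6 arrays and gave 0.13 ± 0.07 and -0.09 ± 0.06, so the Sema3b probes did not settle a direction.

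**Figure D2:**
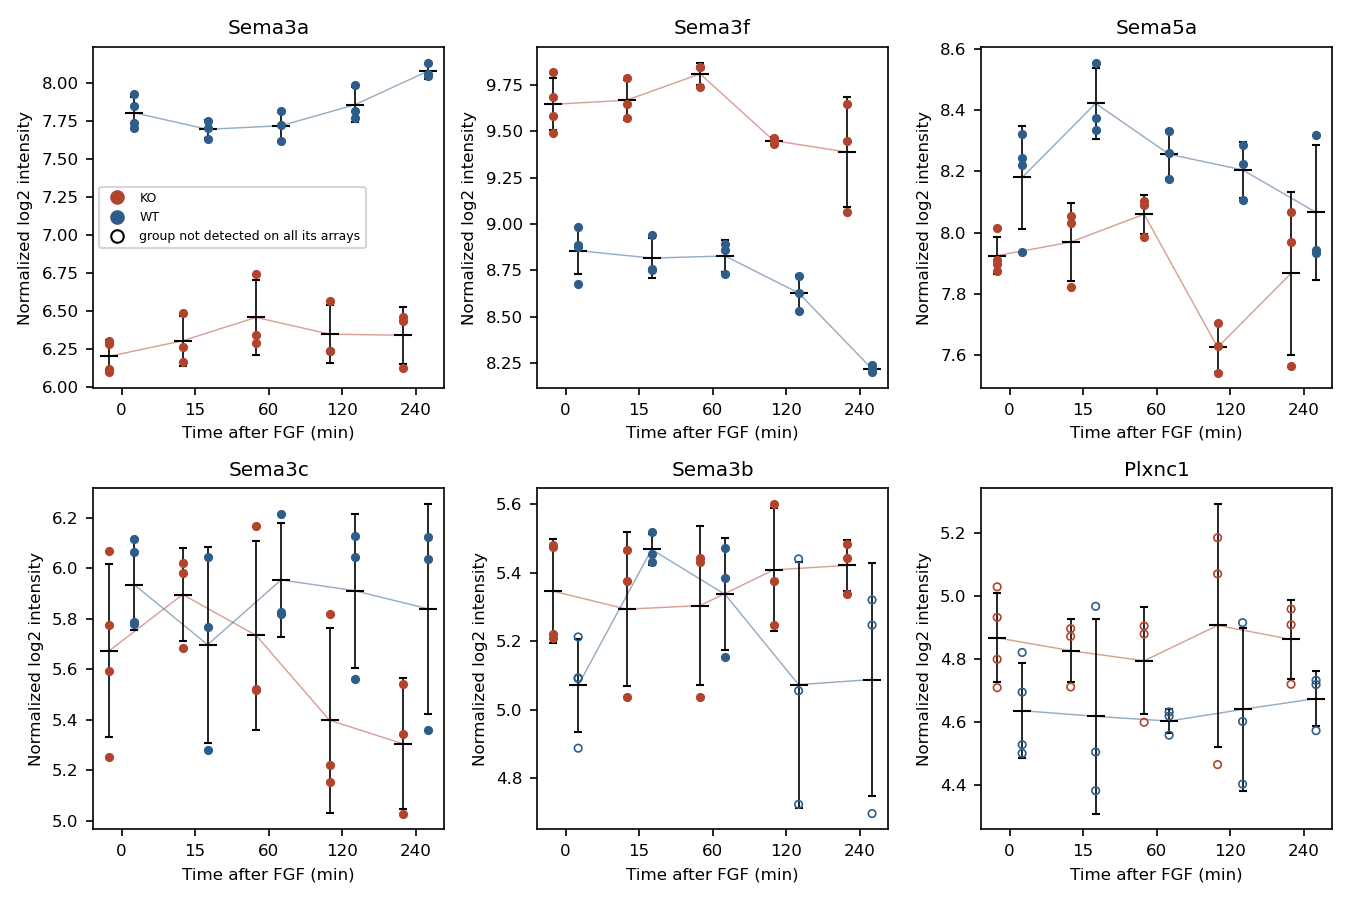
Normalized log2 intensity (y axis, a separate scale in each panel) of the other 6 measured genes by time after FGF (x axis, min) in KO (red) and WT (blue) cells; points are arrays, black bars are mean ± SD, and open points mark groups not detected on all arrays. Sema3a was lower and Sema3f higher on every KO array than on any WT array, while Sema3b, Sema3c and Plxnc1 overlapped at most times.

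The arrays of the genotypes did not overlap over the whole series for 2 of the 7 genes measured (12.4% of all 10903 genes tested), Sema3f being higher in KO cells (7.05% of all genes) and Sema3a lower (5.39%). Because the genes were chosen on these arrays, nothing is read from this count.

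The genes whose 10 group means ran most like those of Sema7a among the named genes tested were Foxc2 (r = 0.967), Rasa2 (0.964), Stx6 (0.962), Oaf (0.958) and Ppp1r13l (0.949). With each genotype's mean subtracted they were Fam167a (0.982), Foxc2 (0.979), Pcsk4 (0.971), Twist2 (0.970) and Prkg2 (0.968). Foxc2, a forkhead transcription factor, was in both sets, and its difference from 0 min was 1.21 in KO and 0.96 in WT cells at 240 min. The r compares the course and not the size. At 240 min the differences of the named genes ran from 0.22 to 1.64 in KO and from 0.18 to 1.44 in WT cells. Those of Sema7a were 3.10 and 2.15. Fam167a (-0.46) and Pcsk4 (-0.73) were lower in KO cells on average, while the other named genes were higher. These likenesses are over 10 points that share arrays and are descriptions.

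Genes on which semaphorins depend were taken as 5 lists of 59 genes, which were also drawn up with results of these arrays known. Of these, 48 were on the array and 32 passed the filter on dim probes. Averaged over the 5 times, 16 of the 32 differed between KO and WT cells in limma's fit, 10 higher and 6 lower in KO, where 67.4% of all genes did, 31.8% higher and 35.6% lower. Their median difference was 0.06, beside -0.02 over all genes. At 0 min 13 of the 32 passed (45.8% of all genes), 7 higher and 6 lower in KO cells (22.2% and 23.7% of all genes). At 15 min 8 passed (39.9%), 5 higher and 3 lower (19.1% and 20.9%). At 60 min 9 passed (42%), 6 higher and 3 lower (20.9% and 21%). At 120 min 10 passed (43.8%), 6 higher and 4 lower (21.2% and 22.6%). At 240 min 14 passed (43.9%), 13 higher and 1 lower (21.9% and 22%), and the median was 0.28 beside -0.02 over all genes. The share that passed at 240 min was thus near that of all genes, and whether its split into higher and lower is particular to these lists was not tested. Those with the largest differences at 240 min were, by list, Sema4b (0.60 ± 0.11), Nrp1 (1.41 ± 0.12) and Itgb1 (0.47 ± 0.19), then Dpysl3 (-0.91 ± 0.11), Fes (0.68 ± 0.17) and Mical2 (0.63 ± 0.15) beside Mical1, and the proteases Adam17 (0.86 ± 0.12), Mmp14 (0.61 ± 0.12) and Furin (0.48 ± 0.12). Of these calls, that of Mical2 ended with the authors' series matrix values and that of Itgb1 under several settings. The size for Fes is open to dim signal in WT cells, as given below.

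Among receptors, 3 of 9 listed genes were tested and 1 differed on average (67.4% of all genes). Nrp1, the neuropilin that binds Sema3a, read 9.69, 9.53, 9.57 and 9.69 on KO arrays at 0 min, against 8.78, 8.57, 8.43 and 8.76 on WT arrays. It was higher in KO cells by 1.07 ± 0.05 on average (limma adjusted p = 8.5e-17), with all KO arrays above all WT arrays. Nrp1 thus ran the opposite way to its ligand Sema3a between the genotypes. Itgb1, the integrin chain through which Sema7a also acts, did not pass on average (0.17 ± 0.08, limma adjusted p = 0.0766). At 240 min its call as higher in KO cells had an adjusted p of 0.0465, which ended under 6 of 9 other settings and without any 1 of 13 arrays. Nrp2 did not pass on average, and Itga1 was not kept. Of 8 other plexins, 3 were tested and 1 differed on average (67.4% of all genes). Plxna2 was lower in KO cells, by 0.46 ± 0.07 (adjusted p = 1.5e-06), while Plxnb1 and Plxnd1 did not pass.

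Of 13 other semaphorins, 8 were tested and 2 differed on average (67.4% of all genes). Sema4a, a transmembrane semaphorin of immune cells, was higher in KO cells by 0.28 ± 0.08 (adjusted p = 0.00195), and the transmembrane Sema6b was lower by 0.28 ± 0.07 (adjusted p = 0.00103). Both were dim, Sema4a being detected on 15 KO and 6 WT arrays and Sema6b on 10 KO and 15 WT arrays. Sema3g, Sema4f and Sema6a were not kept.

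Of 23 plexin signalling proteins, 14 were tested and 10 differed on average (67.4% of all genes). In KO cells 6 were higher and 4 lower (31.8% and 35.6% of all genes). Dpysl3, of the family of collapsin response mediators that act below Sema3a, was lower in KO cells by 1.21 ± 0.05 (adjusted p = 3.41e-19), at 8.80 to 9.18 on KO arrays and 10.11 to 10.35 on WT arrays at 0 min. Mical1, an enzyme that oxidises actin at plexins, was detected on all 16 KO arrays and on no WT array, with means of 5.61 in KO and 4.58 in WT cells (adjusted p = 1.99e-14). By time it was at least 1.47-, 1.51-, 1.82-, 1.64- and 1.56-fold higher in KO cells. Fes, a tyrosine kinase linked to plexin A1, was higher in KO cells by a fitted 0.69 ± 0.07 (1.73e-09), and Rras, a GTPase that plexins switch off, by 0.58 ± 0.04 (2.06e-14; both limma adjusted p). Fes was dim in WT cells, being detected on 1 of 4 arrays at 0 min and on none at 15 min. Its fitted size thus rests on WT values near background, and at 15 min it was at least 1.25-fold higher in KO cells. The smaller differences were those of Mical2, Gsk3b and Dpysl2, higher in KO, and of Dpysl4, Fyn and Limk1, lower in KO. Fyn turned to 0.26 when only probes detected on all arrays of a group were kept and to 0.04 as a mean over its probes, and the calls of Dpysl2 and Dpysl4 each ended under 2 other settings.

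Among proteases that process semaphorins, 4 of 6 listed genes were tested and 2 were higher in KO cells on average (31.8% of all genes). Adam17, a sheddase of membrane proteins, was higher by 0.78 ± 0.05 (adjusted p = 4.75e-14) with no overlap between the genotypes. Mmp14, a membrane-bound metalloproteinase, was higher by 0.18 ± 0.05 (0.00352), a call that ended with median scaling over the kept probes (0.0579; both limma adjusted p). Furin, which cleaves class 3 semaphorins, and Adam10 did not pass.

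**Figure D3:**
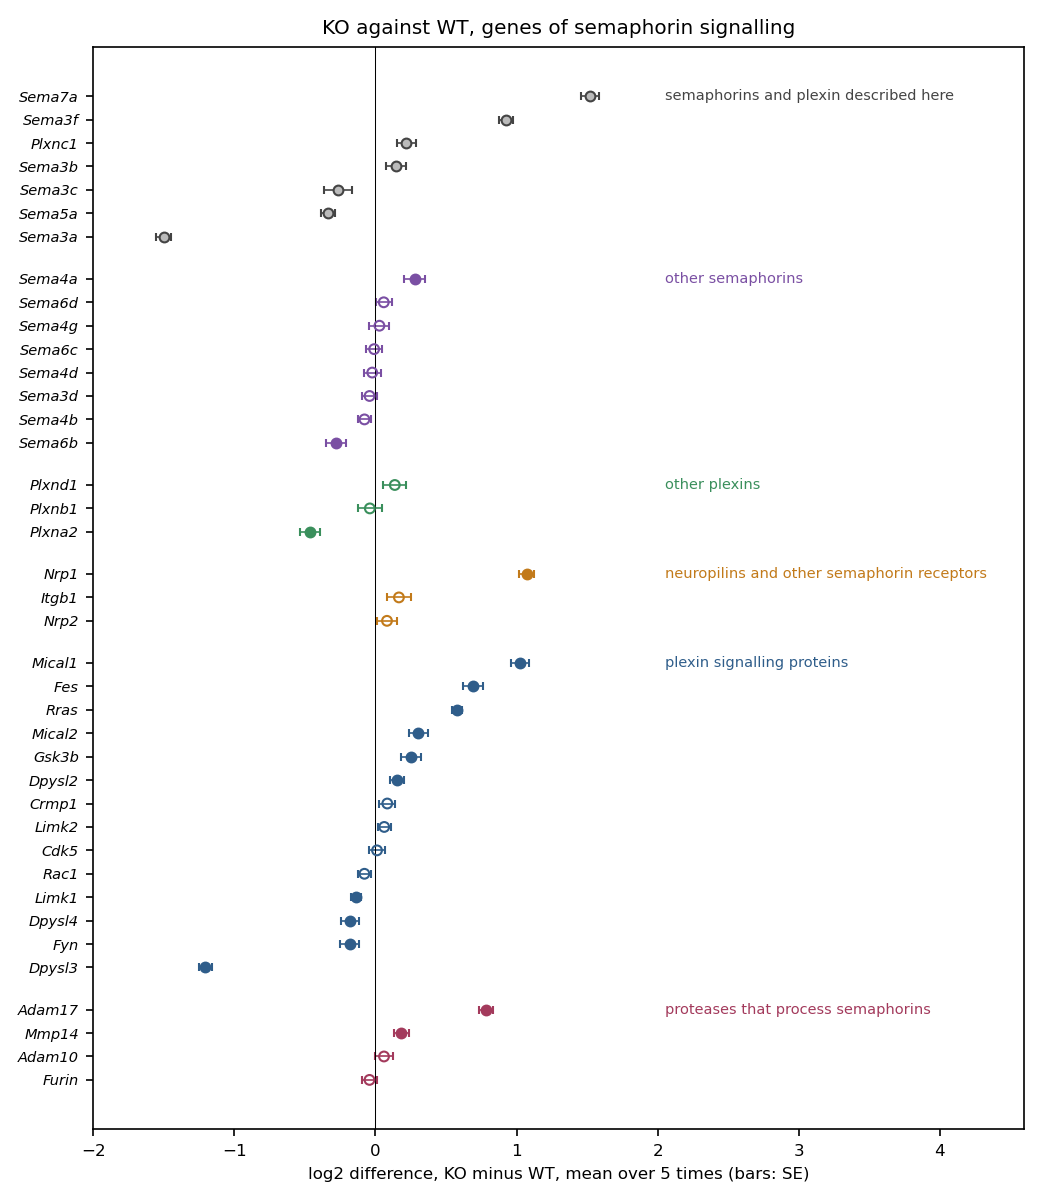
Fitted log2 difference KO minus WT averaged over the 5 times (x axis, bars SE) for the 7 measured semaphorin and plexin genes (grey, values with no call) and the 32 tested genes of the 5 lists; filled points passed limma's adjusted p under 0.05 and open points did not. Sema7a (1.52) and Sema3a (-1.50) lie at the ends, with Nrp1 (1.07), Mical1 (fitted 1.03, no bound) and Dpysl3 (-1.21) the widest of the listed genes.

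After FGF, none of the 32 genes passed at 15 or 60 min in either genotype (limma; at an unadjusted p under 0.05 there were 3 and 2 in KO and 5 and 3 in WT cells). Of all genes, 0.816% and 5.66% passed at these times in KO and 2.29% and 5.25% in WT cells. At 120 min, 2 passed in KO (15.2% of all genes) and 1 in WT cells (4.02%). At 240 min, 7 passed as higher and 1 as lower in KO cells (21.3% of all genes changed), while 3 rose and 5 fell in WT cells (16%). Of the calls among all genes at 240 min, 47.8% in KO and 47.9% in WT cells were higher. Whether the splits are particular to these lists was not tested. Sema4b, a transmembrane semaphorin, was higher at 120 and 240 min than at 0 min in both genotypes. It read 9.40, 9.45, 9.44 and 9.38 in KO cells at 0 min, 10.38, 10.65 and 10.52 at 120 min, and 11.09, 10.85 and 11.06 at 240 min. In WT cells it read 9.72, 10.004, 9.75 and 9.78 at 0 min, 10.61, 10.85 and 10.87 at 120 min, and 10.63, 10.25 and 10.34 at 240 min. Thus the KO arrays were the lower ones at 120 min on average and the higher ones at 240 min. Sema4b rose by 1.10 ± 0.10 and 1.59 ± 0.10 in KO cells at 120 and 240 min (limma adjusted p = 4.35e-09 and 1.24e-12) and by 0.96 ± 0.10 and 0.59 ± 0.10 in WT cells (1.82e-07 and 9.92e-05). It differed from Sema7a in its genotype difference at 0 min, which was -0.40 ± 0.09 (adjusted p = 0.000985).

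Nrp1 rose at 240 min, by 0.90 ± 0.11 in KO cells (limma adjusted p = 6.73e-07) and by 0.48 ± 0.11 in WT cells (0.0031). Limk1, a kinase that inactivates the actin-severing protein cofilin, rose by 0.47 ± 0.08 in KO (4.05e-05) and by 0.34 ± 0.08 in WT cells (0.00192; limma adjusted p). Furin rose by 0.42 ± 0.11 in KO cells (limma adjusted p = 0.00598; 0.0633 without KO 240 min replicate C) and fell by 0.32 ± 0.11 in WT cells (0.0421). Mmp14 fell by 0.55 ± 0.11 in WT cells (limma adjusted p = 0.000924) and did not pass in KO cells. The other WT falls at 240 min were those of Plxnb1 (-0.61 ± 0.18, limma adjusted p = 0.0204), Gsk3b (-0.42 ± 0.15, 0.047) and Limk2 (-0.30 ± 0.10, 0.0402). These 3 calls and that of Furin in WT cells ended without any 1 of 4, 15, 5 and 5 of the 32 arrays, WT 240 min replicate B among them for each. Of the 9 other settings, 4 ended the call of Gsk3b, 4 that of Limk2 and 4 that of Furin in WT cells. In KO cells Mical2 (0.41 ± 0.14, limma adjusted p = 0.043), Rac1 (0.30 ± 0.10, 0.027) and Rras (-0.22 ± 0.08, 0.0424) also passed at 240 min. Sema6d passed too (limma adjusted p = 0.0207), but it was detected on 1 of 3 KO arrays at 240 min and on none at 0 min, so no size is given. The calls of Sema6d, Mical2, Rac1 and Rras ended without any 1 of 1, 6, 3 and 6 arrays, each set holding KO 0 min replicate A. Of the other settings, 4 ended the call of Mical2 (adjusted p = 0.536 with the authors' series matrix values), 2 that of Rras, 1 that of Rac1 and 1 that of Furin in KO cells. Rac1 also passed at 120 min (0.32 ± 0.10, 0.0251) and read -0.02 there under median scaling over all probes.

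**Figure D4:**
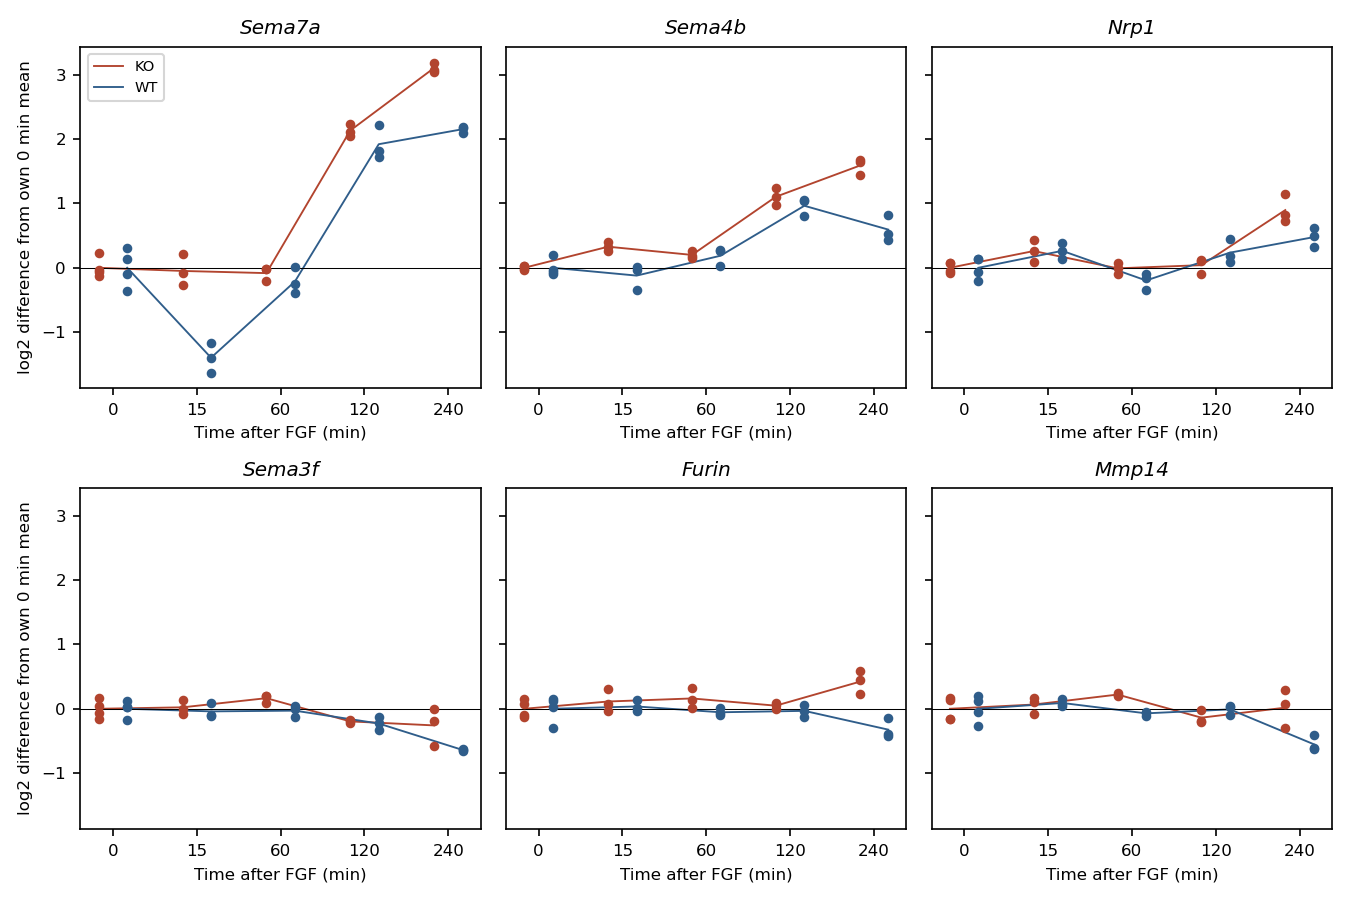
Difference of each array from its own genotype's 0 min mean (y axis, log2) by time after FGF (x axis, min) for Sema7a, Sema4b, Nrp1, Sema3f, Furin and Mmp14 in KO (red) and WT (blue) cells; lines join group means. Sema7a and Sema4b were high at 120 min in both genotypes, and their KO arrays went on to 3.10 and 1.59 at 240 min, against 2.15 and 0.59 in WT cells.

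Over all 4 times together, the F-test passed for 10 of the 32 genes in KO cells and for 5 in WT cells (37.7% and 27.6% of all genes). The KO count was 5 without KO 0 min replicate A or D or KO 240 min replicate A or C, and 6 without any 1 of 10 other arrays. In WT cells 8 genes passed once WT 240 min replicate A was left out. The responses of the 2 genotypes differed for 3 genes by the F-test, where 9.22% of all genes did: Sema4b (limma adjusted p = 9.97e-05), Furin (0.0129) and Mmp14 (0.0303). Leaving out WT 0 min replicate B gave 5 such genes, and there was 1 without WT 240 min replicate C or KO 240 min replicate C. At 240 min, when 7.86% of all genes passed for this difference, the response in KO minus that in WT cells was 0.99 ± 0.14 for Sema4b (limma adjusted p = 3.45e-05), 0.74 ± 0.15 for Furin (0.00247) and 0.57 ± 0.16 for Mmp14 (0.0285). The value of Sema7a, given with no call, was 0.95 ± 0.20. Sema6d passed as well (0.0322), with no size for the reason above. Its call ended without any 1 of 5 arrays, and that of Mmp14 without any 1 of 8, WT 240 min replicate C being among both sets.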

How the data were processed

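The values deposited by the authors are linear intensity, not normalized between arrays. GenomeStudio 1.9.0 is the program in the submitters' processing notes. Detection was judged from the fraction that the authors deposited beside each intensity, taken as 1 minus the detection p-value. As an alternative, the intensity values of the authors' series matrix were used, whose column medians lie at 10.1 to 10.2 and whose steps of processing the sources used here do not give. The other 192 columns with values per sample were left aside.

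In R 4.3.3 with limma 3.58.1, intensities were corrected with neqc (normexp with negative controls inferred from the detection p, an offset of 16, log2 and quantile normalization). The offset compresses differences of dim genes. Probes with a detection p under 0.05 on at least 3 arrays were kept (14716 of 25697), and the brightest stood for a gene, which left 10903 genes. These were 10041 named genes and 862 probes without a symbol, each of which was counted as a gene. Probe symbols came from the platform annotation, updated by gene ID. 1 fit of the 10 group means over all 32 arrays (lmFit, eBayes) gave differences and standard errors, and a gene passed at a Benjamini-Hochberg adjusted p under 0.05 over all genes tested. Every adjusted p is limma's, and the script was tested on simulated data. A probe detected on no array of a group has only a bound there: its level is set on each array to the lowest detected signal, or to the probe's own value where that is higher, and the mean of the other group over the mean of these levels is written as at least N-fold. No 2 arrays of a group held identical values, and their lowest correlation was 0.992. The number of arrays limits the precision.

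The genes described and the 5 lists were chosen with earlier results of these data known. Of each list, up to 4 genes that passed, those with the largest difference, were described for the averaged genotype difference and the FGF responses, and at 240 min for the genotype difference, the other single times being given as counts. Promoter windows were available for 6 of the 8 genes. Probe positions are left out because no genome build is named for the array. The alternatives were 2 median scalings, another background correction, the series matrix, 2 other filters, a mean over probes, a replicate block, array weights and leaving out each array in turn.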

Additional observations from a re-analysis of the deposited data

Results flagged for a closer look

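In KO cells at 0 min, 1 of the 4 arrays stood apart for 2 of the tested genes, its gap to the nearest array being 0.864 of the whole range for Sema3d and 0.865 for Mical1. Replicate C was the high array for both, at 4.87 for Sema3d and 5.78 for Mical1, against 4.69 to 4.71 and 5.42 to 5.47 on the other KO arrays. Sema3d was dim, being detected on 1 of these 4 KO arrays. The rule was applied at 0 min in both genotypes, to the 7 measured genes and to every listed gene with a call. Chance alone marks about 1 in 20 such groups, so nothing is read from these 2 marks.

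The response to FGF differed between KO and WT cells for 3 of the 32 tested genes of the lists by the F-test (9.22% of all genes). At 240 min alone it differed for 4 of them (7.86% of all genes). Nothing is read from these counts. Sema4b differed over the 4 times (limma F-test, adjusted p = 9.97e-05), with a KO minus WT difference of responses of 0.993 at 240 min. For Furin the adjusted p was 0.0129 and the difference 0.744, and for Mmp14 they were 0.0303 and 0.568. Sema6d passed at 240 min (limma adjusted p = 0.0322) and not in the F-test over the 4 times (adjusted p = 0.113). Its fitted 0.600 is no measure of size, since KO cells detected it on 1 of 3 arrays at 240 min and on none at 0 min.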

How the results depend on the processing

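Among the listed genes, 16 differed between the genotypes on average, 15 to 19 under the 9 other settings and 16 to 17 with 1 array left out. These counts, and those of the F-tests below, were made anew in each setting and do not follow the same genes. The genes that passed the F-test numbered 10 in KO cells, 6 with the series matrix and 5 to 10 with 1 array left out. In WT cells 5 passed, 9 with normexp at an offset of 50, 9 with array weights and 4 to 8 with 1 array left out. For the difference of the responses 3 passed, 8 with median scaling over all probes, 6 with normexp at an offset of 50, 5 with array weights and 1 to 5 with 1 array left out. The 14 arrays that moved the KO count by over 1.5 times were KO 0 min replicates A, B and D, KO 15 min replicates A, B and C, KO 120 min replicates A and C, KO 240 min replicates A and C, WT 60 min replicates A and C, WT 120 min replicate B and WT 240 min replicate B. Sema7a kept its directions other than that of the difference of the responses at 120 min, which was 0.212 and read -0.213 with median scaling over all probes, 0.414 with normexp at an offset of 50, 0.768 as a mean over the kept probes and 0.110 to 0.358 with 1 array left out. With normexp at an offset of 50 its log2 differences were 1.10 (KO minus WT, averaged), 1.79 and 2.71 (KO at 120 and 240 min), -0.686, 1.38 and 1.57 (WT at 15, 120 and 240 min) and 0.652 (responses at 15 min). With the series matrix they were 1.96 (averaged), -2.84, 2.20 and 2.44 (WT) and 2.79 (responses at 15 min). As a mean over the kept probes they were 1.17, then 1.87 and 2.75 (KO), -0.736, 1.10 and 1.27 (WT), and 0.714 and 1.48 (responses at 15 and 240 min), since a dim probe enters the mean. Median scaling over all probes gave 1.79 (KO at 120 min) and 0.743 (responses at 240 min). With 1 array left out the ranges were 1.495 to 1.55 (averaged), 2.08 to 2.21 and 3.06 to 3.18 (KO), -1.52 to -1.28, 1.77 to 2.02 and 2.03 to 2.25 (WT), 1.22 to 1.47 and 0.848 to 1.07 (responses). Fyn reversed on average, to 0.258 with only probes detected on all arrays of a group and 0.0368 as a mean over probes, and Rac1 in KO at 120 min, to -0.0196 with median scaling over all probes. The cause was not tested. That scaling gave a median of -0.209 over all genes in KO at 120 min, where 5.61% of its calls were higher, against 40.4% in the main setting. Median scaling over the kept probes went the other way there, with a median of 0.083 and 61.9% of its calls higher. The replicate letters did not pair the arrays: 1 of 16 KO and WT pairs of the same letter and time correlated above 0.1, and 6 of 32 arrays lay closest to an array of their own letter in another group. With the replicate block 16 genes passed on average, 5 in KO, 6 in WT and 2 for the difference of the responses. It ended 5 of 93 calls of single genes: Limk1 in KO minus WT at 15 min (adjusted p = 0.0573), Itgb1 in KO minus WT at 240 min (0.0503), Rras in KO at 240 min (0.0630), and Gsk3b (0.0776) and Furin (0.0699) in WT at 240 min. A slide block was not run, since no slide is given in the files. Dim signal limits Plxnc1, Sema3b, Sema3e, Sema6d, Mical1, the WT level of Fes and the WT level of Sema7a at 15 min.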

Other observations

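The promoter windows of the other genes in the RefSeq table (GRCm38.p6) were G and C rich in 3 of 4 cases. That of Sema3c held 75.7% G or C, 42 CpG dinucleotides and 3 GC boxes, and that of Sema5a 71.3%, 23 CpG, 5 GC boxes, 1 Egr match at -64 and 1 CRE core (TGACG). The window of Plxnc1 held 69.0%, 30 CpG, 4 GC boxes and 1 Egr match at -17. The window of Sema3e held 50.7%, 11 CpG and 2 GC boxes.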
